A study of Mus musculus with 2 samples.

Results

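The genes described here encode enzymes of glycolysis, from the aldolase step onward, and of lactate formation, in muscle-type and widely expressed forms: Aldoa, Gapdh, Tpi1, Pgk1, Pgam1, Pgam2, Eno1, Eno3, Pkm and Ldha. They were chosen by gene name, and all 10 were found among the 18179 annotated genes with at least 1 read in the 2 libraries. The libraries were long-read RNA preparations, where each read spans much of 1 transcript, from adrenal glands of female B6CASTF1/J mice aged 10 days. They form 1 group of 2 biological replicates, with no treatment and no second genotype, age or tissue, so only the libraries themselves can be compared. The label of each tissue sample names a different animal (03 and 04), while the library descriptions both name animal 03 and the donor label is shared, so whether the 2 libraries came from 1 animal or 2 is not settled by the labels.

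Glycolysis splits glucose into pyruvate in the cytosol and yields ATP and NADH, and lactate dehydrogenase turns pyruvate into lactate and restores NAD. Several steps have isozymes encoded by separate genes, such as the muscle forms Pgam2 and Eno3 beside the widely expressed Pgam1 and Eno1, and other steps vary by the choice of promoter or exon within a gene, as in Aldoa and Pkm. The adrenal cortex makes steroids and the medulla makes catecholamines.

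Replicate 1 held 593058 reads and replicate 2 held 772037 reads outside the ERCC spike-ins, and levels are given as CPM, reads scaled to these totals. The limit that a count of 0 allows, 3 reads, is worth 5.06 CPM in the first and 3.89 CPM in the second library. All intervals and limits cover counting error only. Markers of the labelled tissue were abundant: the 6 adrenal cortex genes summed to 16863 and 20737 CPM and the 6 chromaffin genes to 5376 and 6058 CPM. The libraries differed in markers of other tissues. The 12 skeletal muscle markers summed to 13390 CPM in replicate 1 and 4948 CPM in replicate 2, none was at 0 reads in either, and 8 were called higher in replicate 1 and 1, Myh4, in replicate 2. Here and below a gene is called at an adjusted p under 0.05 and 2-fold or more, by an exact binomial test of its reads with Benjamini-Hochberg adjustment over all genes tested. The 8 markers of slow muscle and heart summed to 649 and 41.4 CPM, with Myh7, Tnnc1 and Myl2 at 0 reads in replicate 2. The 8 liver markers summed to 8100.4 and 1304 CPM, the 6 brown fat markers to 8357 and 11957 CPM, and the 8 kidney markers to 0 and 674 CPM, with all 8 at 0 reads in replicate 1. In bulk tissue, fewer cells of a type and less RNA per cell cannot be told apart.

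The isoform choices described below rest on short stretches of sequence. Pkm, pyruvate kinase of muscle and most other tissues, carries a pair of exons of 167 bases each, of which a transcript holds either the upstream one (the M1 form, typical of adult muscle) or the downstream one (the M2 form, typical of proliferating and many other cells). Both lie wholly in coding sequence on the plus strand of chromosome 9 (mm10), at chr9:59675029-59675195 and chr9:59675568-59675734, as exon 9 of Pkm-202 and of Pkm-201. They are shown 5′ to 3′ from the GENCODE M21 transcripts, with capitals at the 64 of 167 positions where they differ in an alignment without gaps.
Pkm upstream exon (M1): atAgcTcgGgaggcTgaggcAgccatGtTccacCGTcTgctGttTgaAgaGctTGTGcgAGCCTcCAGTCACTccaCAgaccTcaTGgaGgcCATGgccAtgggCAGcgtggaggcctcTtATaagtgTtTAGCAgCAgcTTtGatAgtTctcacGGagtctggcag
Pkm downstream exon (M2): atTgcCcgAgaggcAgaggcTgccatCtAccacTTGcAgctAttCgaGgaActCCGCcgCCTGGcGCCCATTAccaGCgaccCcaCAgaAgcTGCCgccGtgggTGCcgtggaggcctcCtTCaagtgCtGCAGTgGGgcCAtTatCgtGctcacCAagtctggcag

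Eno1, the widely expressed enolase that makes phosphoenolpyruvate, has a pair of the same kind. It was found after the data were seen, by the same search of annotated and counted models for equal-length exons that replace each other. Its exons of 59 bases lie wholly in coding sequence on the plus strand of chromosome 4 (mm10), at chr4:150241767-150241825 in Eno1-205 and chr4:150242122-150242180 in Eno1-202. Capitals mark the 29 of 59 positions that differ.
Eno1 upstream exon: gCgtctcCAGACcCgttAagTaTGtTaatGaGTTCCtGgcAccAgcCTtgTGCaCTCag
Eno1 downstream exon: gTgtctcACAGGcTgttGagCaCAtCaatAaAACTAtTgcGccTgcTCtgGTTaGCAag

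The 10 genes together took 4746 reads (8003 CPM) in replicate 1 and 6600.0 reads (8549 CPM) in replicate 2, a mean of 8276 ± 386 CPM (SD, n = 2). That was 0.800% of replicate 1 (exact 95% interval 0.778 to 0.823) and 0.855% of replicate 2 (0.834 to 0.876). Full matches to annotated transcripts made up 85.8 and 89.4% of these reads, and incomplete splice matches, which lack part of an annotated exon chain, 8.47 and 5.94%.

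Aldoa, aldolase A, which cleaves fructose 1,6-bisphosphate, led the group with 1453 and 2117 reads, or 2450.0 and 2742 CPM in replicates 1 and 2 (2596 ± 207 CPM). Ldha, the lactate dehydrogenase subunit that favours lactate formation, followed with 1656 and 1753 CPM (1704 ± 68.4). Pkm held 1079 and 1104 CPM (1091 ± 17.3) and Eno1 916 and 1074 CPM (995 ± 112). These 4 genes stood above all others of the group in both libraries. Pgam1, the widely expressed phosphoglycerate mutase, had 666 and 807 CPM (736 ± 99.6). Tpi1, triosephosphate isomerase, had 524 and 606 CPM (565 ± 57.8), and Pgk1, phosphoglycerate kinase of the X chromosome, which yields ATP, 233 and 207 CPM (219.97 ± 18.0). Below these came the muscle forms, Eno3 with 279.9 and 158 CPM (219 ± 86.2) and Pgam2 with 191 and 81.6 CPM (136 ± 77.0). Gapdh, glyceraldehyde 3-phosphate dehydrogenase, was last with 5 and 13 reads, or 8.43 and 16.8 CPM (12.6 ± 5.95).

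**Figure D1:**
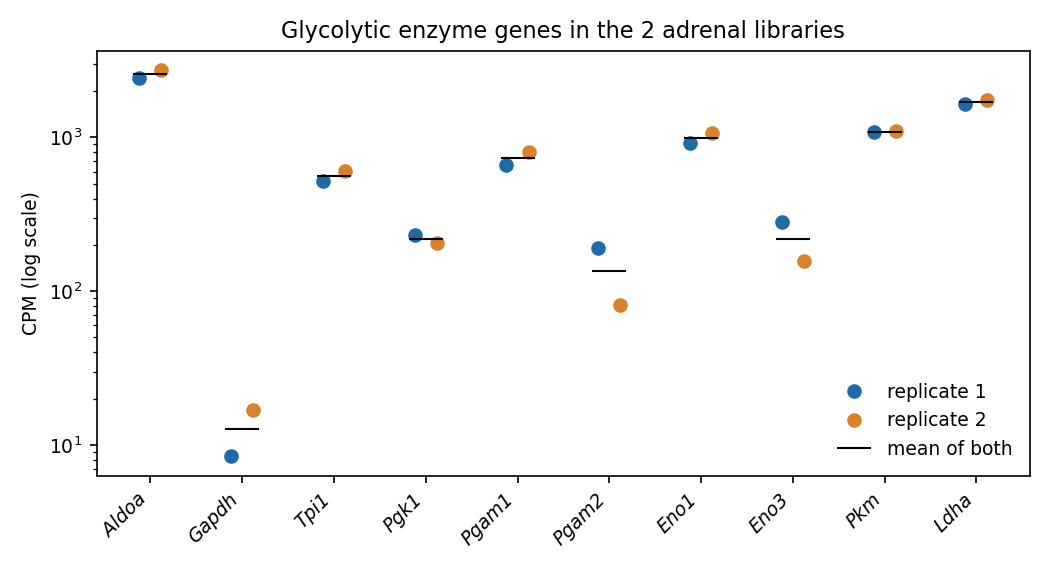
CPM of each enzyme gene (y axis, log scale) in replicate 1 and replicate 2 (points) with the mean of both (line). Pgam2 and Eno3 sit higher in replicate 1, at 191 against 81.6 CPM and 279.9 against 158 CPM, and Gapdh lies far below the other 9 genes.

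This order of CPM takes a long read as 1 molecule and leaves out reads at near-identical copies, described below. In it, the values of Pgk1 and Eno3 overlapped between libraries, as did those of Eno3 and Pgam2. These neighbours did not differ beyond their spread. All other neighbours were apart, Pkm and Eno1 by only 1079 against 1074 CPM. Divided by the length of the most used annotated transcript, the level per kilobase was highest for Aldoa (1718 ± 137 CPM per kilobase) and Ldha (1073 ± 43.1), and Eno1, Pkm, Pgam1 and Tpi1 followed, each overlapping its neighbour. Pgam2 then stood at 162 ± 91.7, Eno3 at 151 ± 59.3 and Pgk1 at 121 ± 9.86 CPM per kilobase, again overlapping, and Gapdh stayed last at 8.90 ± 4.19.

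The low value of Gapdh stood beside many reads at near-identical copies. The annotation holds 72 copies of Gapdh elsewhere in the genome, 68 of them processed pseudogenes, that match at least 500 bases of its transcript Gapdh-203 at 95% identity or more. In 17 of these copies reads were counted, 430 in replicate 1 and 591 in replicate 2, against 5 and 13 at Gapdh itself. The copies thus held 98.9% (97.3 to 99.6) and 97.8% (96.3 to 98.8) of the summed reads. Nearly all of these reads, 425 and 586, lay on models of a single exon. Gm12671 on chromosome 4 (100% identity over 1002 bases) had 152 and 210 reads, Gm12033 on chromosome 11 (99.9%) 82 and 146, Gm5559 on chromosome 5 (99.9%) 72 and 110, and Gm7336 on chromosome 7 (99.8%) 67 and 70. Gapdh and its copies together reached 733 and 782 CPM (758 ± 34.5), a level that overlaps the 666 and 807 CPM of Pgam1. How many of these reads came from the parent gene was not tested, so the 12.6 CPM of Gapdh is uncertain as a level of that gene.

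Eno1 and Pgk1 shared reads with copies to a lesser degree. Eno1b on chromosome 18, 99.5% identical to the Eno1 transcript over 1736 bases, had 365 and 509 reads, and the pseudogene Gm4735 on chromosome 2 had 37 and 52. These copies took 42.5% (39.4 to 45.8) and 40.4% (37.8 to 43.0) of the summed Eno1 reads, and all but 1 of their reads lay on single-exon models. Eno1 and its copies together reached 1593 and 1800 CPM (1697 ± 146), above Pkm and overlapping Ldha. The place of Eno1 in the order above is therefore uncertain. Pgk1-rs7 on chromosome 12 and Gm5537 on chromosome 3, 100% identical to Pgk1 over 1255 and 1252 bases, together took 28.5% (22.2 to 35.4) and 23.4% (17.9 to 29.8) of the summed Pgk1 reads. With them Pgk1 reached 325 and 271 CPM (298 ± 38.7). How many of the reads at copies came from Eno1 or Pgk1 was not tested. The split between these copies was not the same in the libraries: Pgk1-rs7 held 44 of 55 such reads in replicate 1 and 15 of 49 in replicate 2 (Fisher's exact test, two-sided, p = 4.5e-07). This comparison was picked after the data were seen. Both copies match the annotated Pgk1 transcript fully over these bases, so the annotated sequence there does not tell them apart. How reads were assigned between the copies was not tested, and the split is uncertain as a measure of the expression of either copy. Pgam1-ps2 had 1 read in each library. Copies of Pkm and Ldha had 0 reads in both, and no copy was found by this search for Aldoa, Tpi1, Pgam2 or Eno3.

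**Figure D2:**
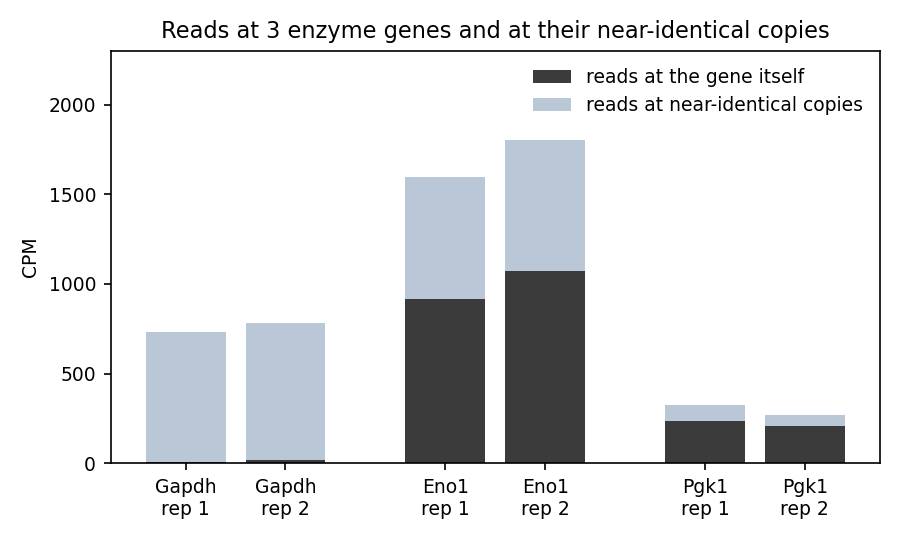
CPM (y axis) at Gapdh, Eno1 and Pgk1 in each library, at the gene itself (dark) and at near-identical copies (light, stacked). Nearly the whole Gapdh bar is light, 98.9 and 97.8% of its reads, against 42.5 and 40.4% for Eno1 and 28.5 and 23.4% for Pgk1.

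Of the 10 genes only Pgam2, the muscle phosphoglycerate mutase, was called different between the libraries, where 3.88% of the 10567 genes tested were called. It was higher in replicate 1, as were 2.90% of all genes, and none of the 10 was called higher in replicate 2, as were 0.984%. Pgam2 had 113 reads in replicate 1 and 63 in replicate 2, so the smaller library held more. Its 191 CPM in replicate 1 were 2.33 times (1.70 to 3.23) the 81.6 CPM of replicate 2 (exact binomial test with Benjamini-Hochberg adjustment over all genes tested, adjusted p = 2.1e-06). Eno3, the muscle enolase, had 166 and 122 reads, 1.77 times (1.39 to 2.26) higher CPM in replicate 1, which passed the p threshold but not the fold (same test, adjusted p = 6.5e-05). The binomial test counts sampling of reads as the only source of spread. With edgeR's exact test and the common dispersion of the 2 libraries, no gene of the 10 was called (Pgam2 adjusted p = 0.962, in a range of 6.2e-07 to 0.962 over 8 alternatives).

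The p threshold alone is easier to pass for genes with more reads, and the share over all genes includes genes with only 10 reads summed. It is therefore not matched in depth to the enzyme genes. Without the fold minimum 4 of the 10 genes passed, 2 in each direction, where 7.40% of all genes passed (3.56% higher in replicate 1 and 3.84% in replicate 2). Beside Pgam2 and Eno3 these were Aldoa, with 1.12 times (1.05 to 1.20) higher CPM in replicate 2 (adjusted p = 0.017, exact binomial test with Benjamini-Hochberg adjustment), and Pgam1, with 1.21 times (1.07 to 1.38) higher CPM in replicate 2 (adjusted p = 0.043). With annotated models only neither passed (adjusted p = 0.122 for Aldoa and 0.375 for Pgam1), nor did Pgam1 without the filter on low counts (adjusted p = 0.071), and with edgeR's exact test the adjusted p was 1 for Eno3, Aldoa and Pgam1. Eno1 had 1.17 times (1.05 to 1.31) higher CPM in replicate 2 and just missed the threshold (adjusted p = 0.052, same test), while edgeR's TMM scaling put it below (adjusted p = 0.016, range 0.016 to 1 over 8 alternatives). Tpi1, Pgk1, Pkm, Ldha and Gapdh did not pass, with ratios of replicate 1 over 2 between 0.501 (Gapdh, interval 0.140 to 1.497) and 1.12 (Pgk1, 0.888 to 1.42). The narrowest interval among these was that of Ldha, 0.869 to 1.03. Over the 10 genes the median log2 ratio was −0.12, against 0.04 over all genes tested.

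Within pairs of isozymes the share of the muscle form was higher in replicate 1. Pgam2 made up 113 of 508 reads of the pair in replicate 1, or 22.2% (exact 95% interval 18.7 to 26.1), and 63 of 686 in replicate 2, or 9.18% (7.13 to 11.6), a difference of 13.1 percentage points (Fisher's exact test, two-sided, p = 5.8e-10). Eno3 made up 166 of 709 reads of Eno1 and Eno3, or 23.4% (20.3 to 26.7), and 122 of 951, or 12.8% (10.8 to 15.1), a difference of 10.6 points (Fisher's exact test, p = 2.2e-08). The mean shares were 15.7 ± 9.24% and 18.1 ± 7.48% (SD, n = 2). These shares rest on the same reads as the gene tests above, so they are no separate support. Like the binomial test, Fisher's exact test counts sampling of reads as the only source of spread. With the reads of Eno1b and Gm4735 counted as Eno1, the Eno3 share was 14.9 and 8.07%. Counted per base of the main transcript, which is short in Pgam2, the Pgam2 share was 37.7 and 17.6%. In summed CPM the skeletal muscle markers were 2.71 times and the liver markers 6.21 times higher in replicate 1. The brown fat markers were 1.43 times higher in replicate 2. The part of each in these shares was not tested.

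The promoters of both muscle genes were searched because the genes share a direction. RefSeq windows (GRCm38.p6) matched all 10 genes. The 250 bases before the RefSeq start are shown 5′ to 3′ for Pgam2 (minus strand, chr11:5803797-5804046) and Eno3 (plus strand, chr11:70656926-70657175), with each CANNTG, the E-box core read the same on both strands, in capitals.
Pgam2 promoter: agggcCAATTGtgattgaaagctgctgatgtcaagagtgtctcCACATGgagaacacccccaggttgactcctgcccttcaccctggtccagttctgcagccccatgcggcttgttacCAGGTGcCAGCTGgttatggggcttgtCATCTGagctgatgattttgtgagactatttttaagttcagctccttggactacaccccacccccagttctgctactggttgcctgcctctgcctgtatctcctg
Eno3 promoter: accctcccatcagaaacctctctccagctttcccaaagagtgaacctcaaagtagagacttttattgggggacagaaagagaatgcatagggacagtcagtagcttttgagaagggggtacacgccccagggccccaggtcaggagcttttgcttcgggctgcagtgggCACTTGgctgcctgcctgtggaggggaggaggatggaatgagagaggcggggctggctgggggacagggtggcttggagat
The Pgam2 stretch holds 5 such matches and the Eno3 stretch 1. In windows of 300 bases, from 250 before to 50 after the start, CANNTG was present in 7 of the 10 genes and in 72.3% of all 32851 windows, about the same share. On either strand ACGTG was found in 5 of 10 (19.6% of all windows), with 5 matches in Ldha and 2 in Pgk1. A CACGTG, as in Ldha, matches on each strand and so counts as 2. GGGCGG was found in 7 of 10 (35.7%), CCAAT in 6 of 10 (37.4%) and TATAAA in 0 of 10 (13.6%); CANNTG can share bases with ACGTG and CCAAT. Neither Pgam2 nor Eno3 held ACGTG or GGGCGG in its window. These are matches of letters and say nothing about binding.

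The first exon of a spliced read was told by its first donor, the 5′ splice site of its first intron, counted where an annotated transcript of the gene starts with that donor. Of the 9 enzyme genes with enough reads, none was called at an adjusted p under 0.05 and 10 percentage points, where 0.357% of 1681 genes tested were called. Aldoa, known to be transcribed from alternative promoters, one of them active in muscle, was the only one of the 9 to pass the p threshold. Its main donor, of the first exon at chr7:126799045-126799254 (minus strand, Aldoa-201), took 1169 of 1366 reads in replicate 1 and 1844 of 2027 in replicate 2, or 85.6% (83.6 to 87.4) and 91.0% (89.6 to 92.2). The difference of −5.39 points passed the p threshold without the minimum (Fisher's exact test with Benjamini-Hochberg adjustment over all genes tested, adjusted p = 0.0014), as did 0.476% of all genes.

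The 1366 and 2027 Aldoa reads include 43 and 44 at the donor of Aldoa-208 and 6 and 12 at that of Aldoa-206. All of these but 2, both in replicate 1, were incomplete splice matches. Whether they began at those exons or were cut short was not tested. Most of the reads off the main donor began further upstream than it. The first exon at chr7:126800002-126800046, annotated in Aldoa-204 and Aldoa-210, took 136 reads in replicate 1 and 114 in replicate 2. That was 9.96% (8.42 to 11.7) and 5.62% (4.66 to 6.72) of the reads on annotated first donors, and 229 and 148 CPM (Fisher's exact test, two-sided, p = 3.3e-06, one of 9 donors of Aldoa and Eno3 compared in this way). Nearly all of these reads, 134 and 113, were on 1 model of 9 exons that joins this first exon to the full remaining chain, a combination of annotated splice sites that no annotated transcript has. The exon at chr7:126800288-126800447 (Aldoa-203) had 12 and 10 reads. A second gene named Aldoa in the annotation, further upstream, had no reads in either library. The upstream first exon was higher in replicate 1, as Pgam2 was. Replicate 1 also had more CPM of muscle and liver markers, less of brown fat markers, and more incomplete splice matches among the enzyme reads. The part of each of these in the share of this exon was not tested.

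Eno3 used more than 1 start in both libraries. Its main donor (first exon chr11:70657202-70657267, plus strand) took 116 of 150 reads and 95 of 117, or 77.3% (69.8 to 83.8) and 81.2% (72.9 to 87.8). The donor of Eno3-204 and Eno3-206 took 21 and 12 reads, 14% (8.88 to 20.6) and 10.3% (5.41 to 17.2), intervals that overlap. In the other genes the main donor took between 94.8% (Eno1, replicate 1) and all of the reads: every such read of Pgk1 (120 and 148), Pgam1 (369 and 593) and Pgam2 (104 and 61) began at a single donor. Tpi1 had 98.6 and 98.4% and Ldha 98.3 and 98.7% on theirs. In replicate 1 the donors of Eno1-206, Eno1-204 and Eno1-211 had 5, 6 and 9 reads, all incomplete splice matches. The 5 reads at the donor of Eno1-207 were not. The 8 and 11 reads at the donors of Pkm-209 and Pkm-203 were all incomplete splice matches too. Whether such reads began at these exons or were cut short was not tested. Pkm had 96.4 and 98.0%, and 18 and 38 further reads began at 3 donors near position 59661603 that no annotated transcript starts with. Gapdh had 2 and 10 reads at annotated first donors and was not tested.

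Pkm as a whole had the ratio between libraries closest to 1 among the 10 genes (0.978, interval 0.881 to 1.08, from 640 and 852 reads), but its exon choice differed between the libraries. Of the reads holding exactly 1 of the exons shown above, 198 in replicate 1 and 180 in replicate 2 held the upstream exon (M1) and 394 and 624 the downstream exon (M2). M2 thus made up 66.6% (62.6 to 70.3) and 77.6% (74.6 to 80.4), a mean of 72.1 ± 7.82% (SD, n = 2) and a difference of −11.1 percentage points (Fisher's exact test, two-sided, p = 6.2e-06). M1 stood at 334 and 233 CPM, 1.43 times (1.16 to 1.76) higher in replicate 1, and M2 at 664 and 808 CPM, a ratio of replicate 1 over 2 of 0.822 (0.723 to 0.934). The pair was exclusive in the reads too: 2 and 1 reads held both exons and 0 skipped both.

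Counted as whole transcripts, largely the same reads show the difference again, so this is no separate support. Pkm was the only enzyme gene called for the share of its main transcript, where 1.87% of 2091 genes tested were called: Pkm-201, which holds M2, took 53.6% (49.6 to 57.5) of all Pkm reads in replicate 1 and 65.0% (61.7 to 68.2) in replicate 2 (Fisher's exact test with Benjamini-Hochberg adjustment, adjusted p = 0.0017). Pkm-202, which holds M1, took 178 and 162 reads, or 27.8 and 19.0%. Aldoa-201 (77.5 and 83.1% of Aldoa reads, adjusted p = 0.0041, same test) and Eno1-202 (85.5 and 91.2% of Eno1 reads, adjusted p = 0.040) passed the p threshold with differences under 10 points, as did 3.78% of all genes without the minimum. The others, Tpi1-205, Pgk1-201, Pgam1-201, Pgam2-201 and Ldha-202, each held 87.0 to 94.9% of their gene's reads in both libraries. Eno3 was the most divided, with 44.0 and 46.7% on Eno3-201, 22.9 and 27.9% on Eno3-202 and 12.7 and 8.20% on Eno3-206. In 8 of the 9 genes, all but Tpi1, the main transcript's share was lower in replicate 1, the library with more incomplete splice matches among these reads. Over all 2091 genes the share was lower in replicate 1 in 72.4% and the median difference was −2.98 points. Of the 39 genes called, 37 had the lower share in replicate 1. The part of read completeness in these shares was not tested.

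In Eno1 the upstream exon was rare. It was held by 17 of 494 reads in replicate 1 and 8 of 778 in replicate 2, or 3.44% (2.02 to 5.45) and 1.03% (0.445 to 2.02), at 28.7 and 10.4 CPM (Fisher's exact test, two-sided, p = 0.0033). The search that found this pair also read the models of these libraries, so the p is not independent of the choice. Each library also had 1 read with both exons.

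**Figure D3:**
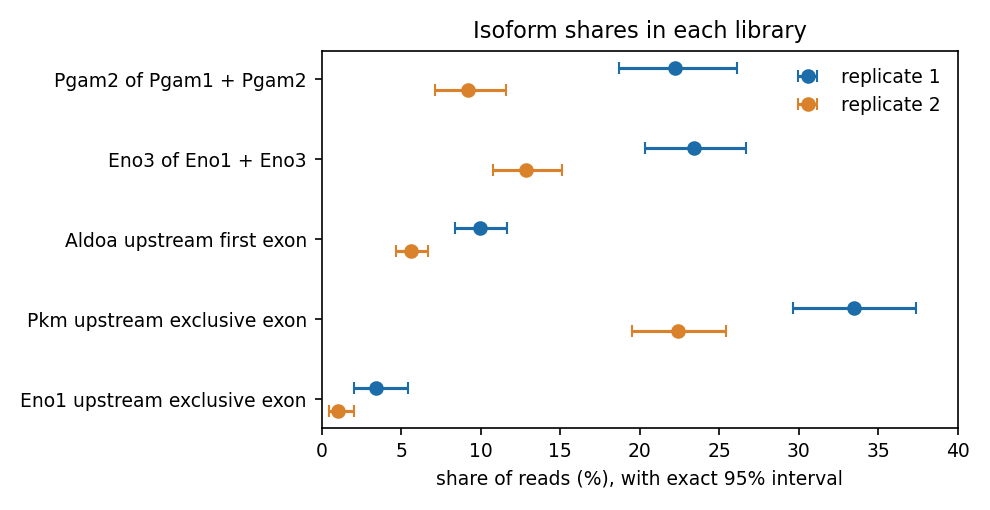
Share of reads in percent (x axis) with its exact 95% interval for 5 isoform choices picked with the data known, in replicate 1 and replicate 2. In the 5 choices drawn the point of replicate 1 lies to the right, from 22.2 against 9.18% for Pgam2 to 3.44 against 1.03% for the upstream exon of Eno1. Some shares not drawn were higher in replicate 2, such as Eno3-202 with 22.9 against 27.9%.

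The 8 splicing regulators listed for Pkm, among them proteins known to act on its exon pair, were all detected and none was called, where 3.88% of all genes were. Hnrnpa2b1 had 377 and 771 reads (636 and 999 CPM), a ratio of replicate 1 over 2 of 0.637 (0.561 to 0.721). Mbnl1, a splicing factor abundant in muscle, had 58 and 38 reads (97.8 and 49.2 CPM), a ratio of 1.99 (1.30 to 3.07). Both passed the p threshold without the fold, as did 7.40% of all genes (exact binomial test with Benjamini-Hochberg adjustment, adjusted p = 2.0e-11 and 0.017). With annotated models only Hnrnpa2b1 did not pass (log2 ratio −0.16, adjusted p = 0.828), and with edgeR's exact test neither did (adjusted p = 1 for both). Ptbp1 (73 and 74 reads), Hnrnpa1 (125 and 122), Srsf3 (99 and 144), Ptbp2 (15 and 13), Rbm4 (12 and 20) and Ptbp3 (6 and 6) did not pass. Their part in the exon shares was not tested.

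Of the 20 further glycolytic enzyme genes listed, 12 had enough reads to be tested, 1 was called higher in replicate 1 (2.90% of all genes were) and none in replicate 2. That gene was Pfkm, the muscle phosphofructokinase, with 114 and 58 reads (192 and 75.1 CPM), 2.56 times (1.85 to 3.57) higher in replicate 1 (adjusted p = 1.0e-07, same test); the call was lost with annotated models only (adjusted p = 0.142) and with edgeR's exact test (adjusted p = 0.672). The liver form Pfkl had 264 and 422 reads and the platelet form Pfkp 46 and 46, and neither passed. Ldhb, the lactate dehydrogenase subunit of heart and other oxidative tissues, had 597 and 892 CPM, 1.495 times (1.31 to 1.70) higher in replicate 2, which passed the p threshold only (adjusted p = 2.8e-08, and 1 with edgeR's exact test). Beside 1656 and 1753 CPM of Ldha this gave more Ldha than Ldhb reads in both libraries. Gpi1, glucose phosphate isomerase, had 545 and 534 CPM, Eno1b 615 and 659 CPM, Hk1, a hexokinase, 52.3 and 38.9 CPM and Bpgm, which makes 2,3-bisphosphoglycerate, 48.9 and 69.9 CPM; none of these passed. Of the 12 tested, the median log2 ratio was 0.14.

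**Figure D4:**
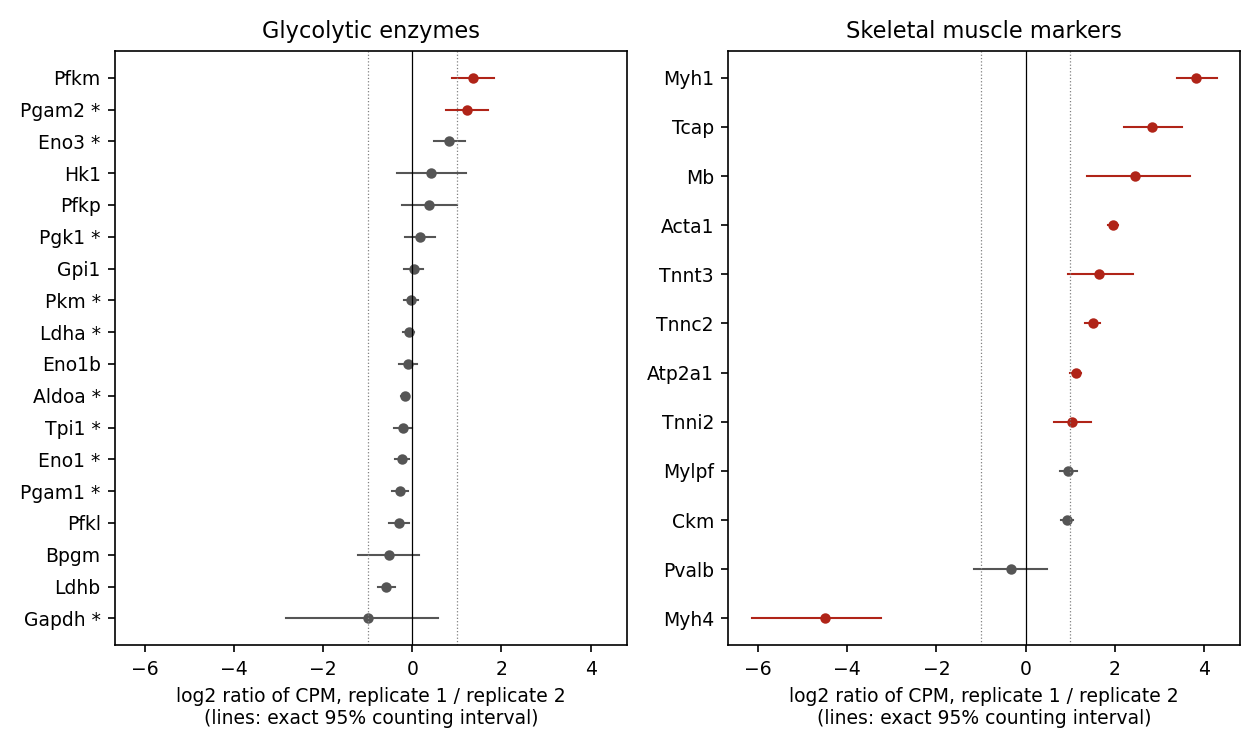
Log2 ratio of CPM, replicate 1 over replicate 2 (x axis, points with exact 95% counting intervals), for 18 glycolytic enzyme genes (left, the 10 described here starred) and the 12 skeletal muscle markers (right); red marks called genes and dotted lines 2-fold. The muscle forms Pfkm and Pgam2 are the called enzymes at the top of the left panel, with Eno3 below 2-fold, and most muscle markers lie to the right of 0.

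Among 21 transporters and regulators, 19 were tested and none was called, where 3.88% of all genes were; 3 passed the p threshold without the fold, as did 7.40% of all genes. Gpd1, glycerol 3-phosphate dehydrogenase, was the most abundant with 1639 and 1658 CPM. Mpc2, a subunit of the mitochondrial pyruvate carrier, had 363 and 566 CPM and Pdk4, a kinase that inhibits pyruvate dehydrogenase, 597 and 751 CPM; both passed the p threshold only (exact binomial test with Benjamini-Hochberg adjustment, adjusted p = 2.7e-06 and 0.013). Slc16a1, a lactate transporter, had 129.8 and 66.1 CPM, the larger value in replicate 1 (adjusted p = 0.0040, same test), and did not pass with annotated models only (adjusted p = 0.256). None of the 3 passed with edgeR's exact test (adjusted p = 1 for each). Mpc1, Pdk2 and Gpd2 had 287 and 288, 233 and 193, and 113 and 90.7 CPM and did not pass.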

How the data were processed

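Per the labels, RNA of 2 adrenal gland libraries was sequenced as long reads. For each library the authors deposited counts, whole reads per transcript model without normalization, and a gene model annotation. Notes in the deposit give GENCODE M21 on mm10, and the source column of the annotation names TALON; aligner and tool versions: not given in the sources used here. Number of exons and length are as the deposited tables give them.

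From these files the counts of all models of a gene were summed, ERCC reads (2.24 and 2.11%) were left out, and CPM was computed on the remaining 593058 and 772037 reads. The SIRV spike-ins the labels name were not analysed here. Genes with 10 or more reads summed were tested for an excess in either library (exact binomial, two-sided, expected share from the library totals; scipy 1.17.1), with Benjamini-Hochberg adjustment, and called at an adjusted p under 0.05 and 2-fold (pseudocount 0.5 reads). Main transcript and first donor shares were tested by Fisher's exact test in genes with 50 or more reads in each library. All tests compare the reads of 2 libraries, not conditions. Single shares carry exact Clopper-Pearson intervals at 95%. Copies were found with BLAST 2.17.0 after the data were seen. Alternatives used edgeR 4.0.16 and DESeq2 1.42.0 size factors. On simulated data with 200 genes changed 3-fold, the binomial test recovered 198 and made 4 false calls among 10156 genes tested. The simulated counts held counting error only, which is what this test assumes, and the changed genes had 100 or more reads. The simulation therefore does not measure false calls in the real libraries. The members, gene lists and named genes (all 10 members; other enzymes with 50 or more reads summed, transporters and regulators with 100 or more, splicing regulators with 10 or more) were chosen with earlier results of these data known. A gene that this rule would name is not reported here.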

Additional observations from a re-analysis of the deposited data

Results flagged for a closer look

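Reads on models antisense to the enzyme genes belong to no comparison above. Over Pkm, such models held 6 reads in replicate 1 and 5 in replicate 2, beside 640 and 852 reads of Pkm itself. Pkm was flagged because both counts exceeded 3 reads, the limit that a count of 0 allows, which is no background level. Over Pgk1 they held 3 and 1 reads, beside 138 and 160 of its own. No control sample exists to set the antisense reads against, and the libraries' strand handling is not given in the sources used here. The other 9 genes had 0 to 3 antisense reads per library.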

How the results depend on the processing

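The count of called enzyme genes (1, Pgam2) was the same with TMM or DESeq2 scaling, with spike-ins in the totals, without the filter, with annotated models only and with the reads of copies added, an alternative chosen after seeing the data. It was 4 without the fold minimum and 0 with edgeR's exact test at a common dispersion of 0.0628. All genes called numbered 782 without the minimum (48.1% higher in replicate 1, against 74.6% of the 410 in the main test), 248 with annotated models only and 132 with edgeR. First donors gave 1 called enzyme gene (Aldoa) without the minimum difference, and 2 called genes in all with annotated models only, against 6. Main transcripts gave 3 enzyme genes (Aldoa, Eno1, Pkm) and 79 genes without the minimum, and 14 and 21 genes, against 39, with spliced reads as denominator and with 20 reads as minimum. The Pgam2 share moved to 27.6% per base. The summed level was 7252 CPM with annotated models only and 9803 CPM with copies added, against 8276. Leaving out each replicate in turn left 1 library, whose values were 8003 to 8549 CPM for the sum, 9.18 to 22.2% for Pgam2, 12.8 to 23.4% for Eno3 and 66.6 to 77.6% for M2. The differences of these shares between libraries kept their direction and their side of the threshold under every alternative run with a test. All of these alternatives used Fisher's exact test on largely the same reads. They count read sampling as the only source of spread, so they cannot tell whether the differences exceed the usual spread between libraries. Among 34 genes covered by the naming rule, 250 of 267 alternative values kept direction and call; 9 gained and 3 lost a call. With annotated models only the log2 ratio turned to 0.045 for Pkm, 0.017 for Ldha and 0.021 for Eno1b, and that of Gpi1 to −0.0052 with TMM and −0.00013 with DESeq2 scaling; the cause was not tested. No paired analysis was possible because the labels give 1 group.

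Depth limits the low genes: Gapdh with 18 reads and the rare Eno1 exon with 25 rest on few reads. With 1 library left after leaving out the other, no test was possible. Reads cut short at the 5′ end, the assignment of reads to near-identical copies and the animal behind each library could not be checked from these files.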
